A study of Rattus norvegicus with 60 samples.

Results

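The 38 genes described here mark endothelial cells, which line blood and lymph vessels, or carry the signals by which these cells hold their barrier and set vessel tone. They were chosen by name, with earlier results of these data known, and matched to rows of the lung count table. All 38 were found among its 30045 rows and passed the filter that left 15995 genes for testing. The lungs came from male Fischer 344 rats (F344/DuCrl, about 3 months old) that inhaled multi-walled carbon nanotubes (MWCNT, fibre-like carbon particles) or only filtered air in whole-body chambers. They were exposed on 3 days for 6 hours each, and a piece of lung was taken 1 day later. Each of 5 runs used 1 cumulative dose, from 180 over 90, 45 and 22.5 down to 11.25 mg/m3, on 6 rats, beside 6 further rats kept in filtered air, with 3 rats to a cage. All groups were otherwise untreated rats of the 1 strain and sex. The labels mark 7 libraries as outliers, and these were left out, which left 5 exposed rats at 180, 4 at 90, 6 at 45, 6 at 22.5 and 5 at 11.25 mg/m3, and 6 air rats in each run except that of 45 mg/m3, which kept 3.

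Lung capillaries are lined by a thin endothelium whose cells are sealed to each other by VE-cadherin, claudin-5 and related surface proteins. Circulating or locally made ligands act on it through dedicated receptors. VEGF acts on KDR and FLT1, angiopoietins on TEK with its partner TIE1, BMP9 on the ACVRL1 and endoglin complex, and adrenomedullin, endothelin and apelin on their own receptors. SOX17, ERG and other transcription factors keep the endothelial programme on, and thrombomodulin and the protein C receptor keep its surface free of clot.

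The 53 libraries analysed held between 8.10 M and 16.2 M counts each (M for 1e6 counts), with a median of 11.2 M. Levels are given as CPM, counts per 1e6 counts, on library sizes scaled by TMM, a method that sets the bulk of genes level between libraries. They are not divided by gene length and are compared only for 1 gene between groups. Markers of lung tissue were high in all analysed libraries, with surfactant genes and other alveolar type 2 markers at a summed level of 20314 to 32413 CPM. A list of 10 liver genes took at most 0.05% of their counts. It took 19.2% to 22.5% in 3 of the libraries labelled outlier, 1 from the air group at 45 mg/m3 and 2 from the exposed group at 90 mg/m3, where 37 of the 38 genes lay below every air library. Dose and run differ together between runs, so that the dose and the run cannot be told apart.

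In the run of 180 mg/m3, 25 of the 38 genes were lower in the exposed lungs and none was higher at an adjusted p under 0.05 (edgeR's quasi-likelihood test with Benjamini-Hochberg adjustment over all genes). Of all genes tested in that run, 10.9% were called lower and 12% higher. Because the 38 genes were chosen with earlier results known, their count beside this share is not an independent test. The falls were modest in size: those of called genes ran from 10.9% for Mmrn2 to 29.6% for Cldn5. The median log2 fold change of the 38 genes was -0.27, beside -0.01 over all genes tested, and 36 of the 38 estimates were below 0. At an unadjusted p under 0.05, 27 were lower and 0 higher, and DESeq2 and limma voom also called 0 higher. In whole lung RNA, fewer endothelial cells and less RNA per cell cannot be told apart.

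The other runs gave fewer calls, all of them falls. At 90 mg/m3, 13 of the 38 genes were called lower, against a background of 4.28% of all genes lower and 6.82% higher. At 45 mg/m3, 10 were called lower (background 2.09% lower and 3.32% higher), and at 22.5 mg/m3, 3 were (1.62% and 5.18%). At 11.25 mg/m3 edgeR called 0 of the 38 in either direction, where 0% of all genes were called lower and 0.025% higher; at an unadjusted p under 0.05, 1 was lower and 3 were higher, and DESeq2 called 0 and limma voom 1, lower. The medians of the 38 log2 fold changes were -0.20, -0.18, -0.07 and 0.00 in these 4 runs. Estimates below 0 numbered 35, 35, 32 and 17 of 38. No gene of the 38 was called higher in any run by edgeR, DESeq2 or voom with the 53 libraries, while at an unadjusted p under 0.05 edgeR gave 0 higher at 90 and 45 mg/m3 and 1 at 22.5 mg/m3.

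**Figure D1:**
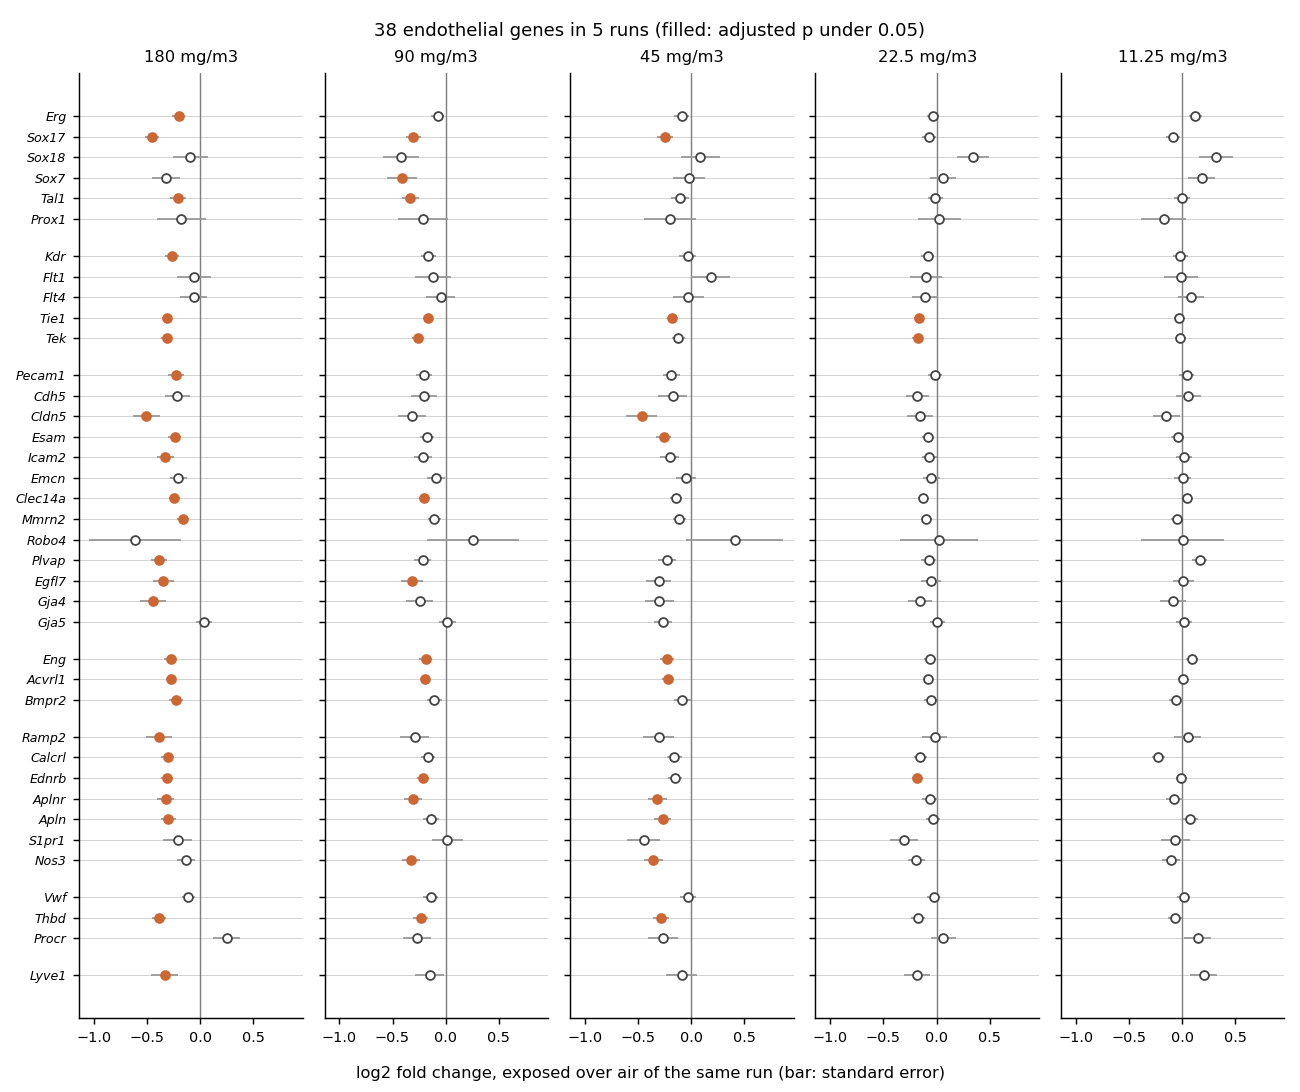
Log2 fold change of exposed over air lungs (x axis, bar: standard error) for the 38 genes (y axis, grouped by role in the order of the text) in the 5 runs. Filled points passed an adjusted p of 0.05: 25 genes at 180 mg/m3, 13 at 90, 10 at 45, 3 at 22.5 and 0 at 11.25, all of them left of 0.

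Of the 38 genes, 27 were called lower in at least 1 run, 15 in at least 2 and 8 in at least 3. Tie1, an orphan receptor that works with TEK, was called in 4 runs, those of 180, 90, 45 and 22.5 mg/m3. Sox17, Eng, Acvrl1, Aplnr and Thbd were called at 180, 90 and 45 mg/m3, and Tek and Ednrb at 180, 90 and 22.5 mg/m3. Of the 13 genes called at 90 mg/m3, 11 were also called at 180, and of the 10 called at 45 mg/m3, 9 were. Sox7 and Nos3 were the exceptions at 90 mg/m3 and Nos3 at 45 mg/m3. The 3 called at 22.5 mg/m3, Tie1, Tek and Ednrb, were all called at 180 mg/m3 too.

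Several counts of calls depended on single libraries, which are numbered in the order of their accession. At 180 mg/m3 they ran from 22 to 25 when any 1 library was left out. At 90 mg/m3 the count was 8 without exposed rat 2 and 5 without exposed rat 4. At 45 mg/m3, with 3 air rats, it was 3 without air rat 1, 3 without air rat 2 and 1 without air rat 4, and 4, 5 and 4 without exposed rats 3, 5 and 6. At 22.5 mg/m3 it was 7 without air rat 2 and 5 without exposed rat 1, and 0 when that run was fitted alone. In the run of 45 mg/m3, 2 of the air lungs labelled outlier had no liver profile, and 28 and 24 of the 38 genes lay below the 3 air rats kept. These counts are on plain library totals, and the first of the 2 lungs had 5.19 M counts. No share over all genes is given, so the counts cannot be read as particular to these genes. With the 4 outlier-labelled libraries that had no liver profile put back, the count at 45 mg/m3 was 5, and it was 27 at 180 mg/m3. Counts of settings in which a single gene lost its call leave out those in which its sign turned, which happened at 45 mg/m3 with all 60 libraries, those of a liver profile included.

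Summed over the 38 genes, the level in air was 14039, 15448 and 16532 CPM (lowest, median and highest of 6 rats) in the run of 180 mg/m3. The 5 exposed rats of that run lay between 12381 and 12919 CPM, all below the lowest air rat. At 90 mg/m3 the 4 exposed rats had 13337 to 14329 CPM and the air rats 15033 to 16607, also without overlap. The same held at 45 mg/m3, with 12844 to 14329 CPM in 6 exposed rats and 15071 to 16309 in 3 air rats, though the 2 outlier-labelled air lungs without a liver profile stood at 13271 and 13770 CPM on plain library totals, a scale on which the 3 air rats kept had 14924 to 16157. At 22.5 mg/m3 the ranges overlapped (13679 to 15104 CPM exposed, 13894 to 15726 in air). At 11.25 mg/m3 the exposed mean was 15351 ± 421 CPM (SD, n = 5) and the air mean 15222 ± 620 (n = 6).

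**Figure D2:**
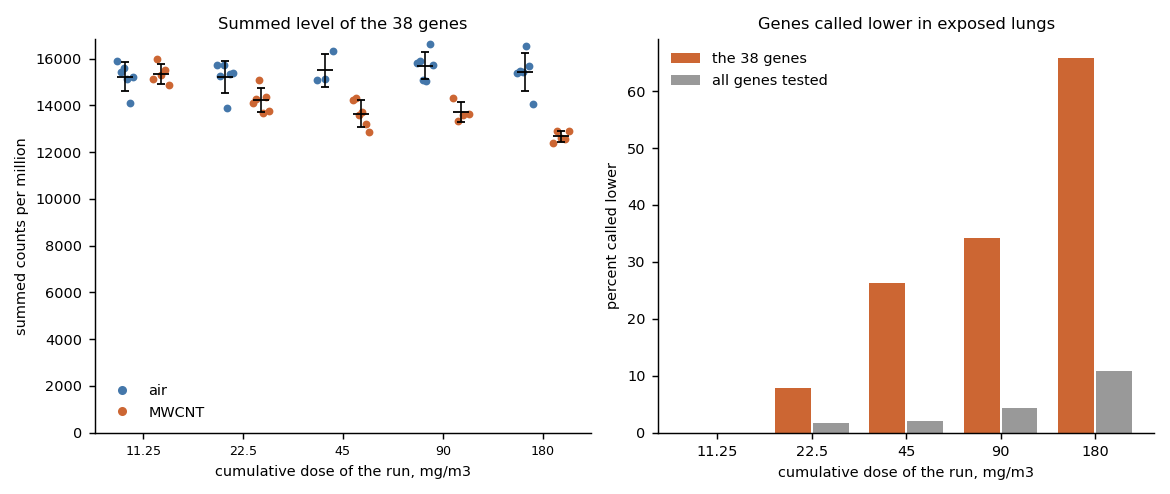
Left, summed level of the 38 genes in CPM (y axis) by dose of the run (x axis), with 1 point per lung library and bars for the mean and SD: the 5 exposed rats at 180 mg/m3 lie between 12381 and 12919, below all air rats of any run. Right, percent of the 38 genes and of all genes tested that were called lower (y axis) by dose, with 25 of 38 beside a background of 10.9% at 180 mg/m3.

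The sequences before the start sites of 6 genes are shown because these genes were called in at least 3 runs or differed in effect among the runs, and RefSeq windows were at hand for them. Each line gives the 150 bases before the annotated start, 5′ to 3′ on the gene's strand, from RefSeq on the rat build GRCr8, with AGGAAG or its reverse complement CTTCCT in capitals. AGGAAG is a form of the site that ETS-family factors such as ERG, FLI1 and ETS1 bind.
Tie1: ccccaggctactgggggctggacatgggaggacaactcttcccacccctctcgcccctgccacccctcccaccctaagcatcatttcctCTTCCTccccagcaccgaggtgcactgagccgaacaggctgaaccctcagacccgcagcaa
Eng: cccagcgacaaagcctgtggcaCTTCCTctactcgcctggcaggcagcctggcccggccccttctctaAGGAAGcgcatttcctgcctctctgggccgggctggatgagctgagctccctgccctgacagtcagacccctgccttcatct
Plvap: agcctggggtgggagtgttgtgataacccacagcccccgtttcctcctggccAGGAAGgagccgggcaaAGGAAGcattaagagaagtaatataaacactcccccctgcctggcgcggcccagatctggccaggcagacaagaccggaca
Apln: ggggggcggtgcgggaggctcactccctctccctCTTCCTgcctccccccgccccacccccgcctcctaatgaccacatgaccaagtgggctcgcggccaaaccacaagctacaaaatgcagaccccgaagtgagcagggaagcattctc
Ednrb: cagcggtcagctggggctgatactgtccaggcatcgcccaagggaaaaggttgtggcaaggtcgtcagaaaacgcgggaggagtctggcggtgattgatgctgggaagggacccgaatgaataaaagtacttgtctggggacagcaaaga
Clec14a: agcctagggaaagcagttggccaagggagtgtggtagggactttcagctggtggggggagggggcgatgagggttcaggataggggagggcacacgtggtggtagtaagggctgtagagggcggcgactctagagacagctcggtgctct
The stretches lie at chr5:137304982-137305131, minus strand (Tie1), chr3:36332129-36332278, plus strand (Eng), chr16:18231280-18231429, minus strand (Plvap), chrX:132091247-132091396, minus strand (Apln), chr15:87086766-87086915, minus strand (Ednrb) and chr6:81619557-81619706, minus strand (Clec14a). Eng and Plvap held 2 matches each in these 150 bases, Tie1 and Apln 1 each, and the letters were not found in the stretches of Ednrb and Clec14a. RefSeq windows of 300 bases (250 before and 50 after the start) were matched by symbol for 24 of the 38 genes, and 23 of them had a single window. AGGAAG on either strand was in 16 of these 23 windows (69.6%), beside 34.5% of all 33469 windows. GGGCGG, the GC box, was in 15 (65.2%, beside 33.1%). ACAAT, bound by SOX factors, was in 7 (30.4%, beside 33.7%), GATAA, bound by GATA factors, in 5 (21.7%, beside 26.5%) and TATAAA in 4 (17.4%, beside 14.2%). Both strands were searched and none of the 5 motifs contains another. A match describes letters and is not a binding site. Pecam1, Sox18, Tek, Sox7, Prox1, Esam, Vwf, Ramp2, Icam2, Acvrl1, Thbd, Cdh5, Aplnr and Sox17 had no entry in the table.

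Among the 6 transcription factors, 3 fell at 180 mg/m3: Sox17, Erg and Tal1. Sox17, a factor of arterial and lung endothelium, was at 110, 116 and 143 CPM (lowest, median and highest of 6) in air. The 5 exposed rats had 83.8, 95.2, 90.4, 87.2 and 83.1 CPM. All 5 lay below every air rat, a fall of 27% (log2 fold change -0.45 ± 0.07 SE, adjusted p = 8.27e-07). At 90 mg/m3 Sox17 was at 100.8, 99.8, 96.6 and 101.2 CPM in the exposed rats and 114.2 to 130.4 in air, again without overlap (-0.31 ± 0.07, adjusted p = 0.00233). In the 45 run the ranges overlapped (90.0 to 110.5 CPM exposed, 108.5 to 131.2 in air) and the fall was 15.7% (adjusted p = 0.0473). That call was lost in 11 of 18 other settings, among them those without air rat 1 or 4 or exposed rat 3, 4, 5 or 6 (adjusted p from 0.0515 to 0.368) and the 1 with the 4 outlier-labelled libraries put back (log2 fold change -0.12, adjusted p = 0.358). Erg, an ETS factor that maintains endothelial identity, fell by 13.1% at 180 mg/m3 (adjusted p = 0.0085), from 155 ± 18.6 to 134 ± 7.59 CPM; with that run fitted alone the log2 fold change was about the same (-0.20) and did not pass (adjusted p = 0.0572). Tal1, a factor shared by blood and endothelial lineages, fell by 13.6% (adjusted p = 0.0368) and its call was lost without air rat 1 or 3 or exposed rat 2, 3 or 4 (adjusted p from 0.071 to 0.0977).

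Sox7 and Sox18, relatives of Sox17, varied more between rats. In air at 22.5 mg/m3, rats 5 and 6 had 145.6 and 136.5 CPM of Sox18, and rats 1 to 4 had 77.5 to 87.9. For Sox7 these values were 126.4 and 135.0 beside 73.4 to 85.7. Rats 5 and 6 were also the highest in air at the lowest dose. In air at 90 mg/m3 this held for Sox18 and not for Sox7, and at 180 mg/m3 for neither. The exposed rats analysed at 90 mg/m3 were rats 1 to 4 alone. The effect of this on the estimates at 90 mg/m3 was not tested. Sox7 was called at 90 mg/m3 (log2 fold change -0.41 ± 0.14, adjusted p = 0.0429), but lost the call in 10 of 19 other settings: without air rat 1, 2, 3, 5 or 6 or exposed rat 2 or 4 (adjusted p from 0.0524 to 0.183), with no filter, with the run alone and with the 4 libraries put back. At 180 mg/m3 it was -0.32 ± 0.13 (adjusted p = 0.0664; 0.0135 without exposed rat 6). Sox18 was -0.42 ± 0.17 at 90 mg/m3 and 0.34 ± 0.15 at 22.5 mg/m3, and neither passed (adjusted p = 0.114 and 0.179). Prox1, the master factor of lymphatic endothelium, was near the lower end of detection in lung, at 1.57 to 3.73 CPM in air and 1.90 to 4.41 CPM in the exposed rats of the 180 run, and was not called in any run.

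Of the 5 receptors for VEGF and angiopoietins, Tie1, Tek and Kdr fell at 180 mg/m3. Tie1 was at 349, 373 and 385 CPM (lowest, median, highest) in air and at 291, 305, 285, 288 and 314 CPM in the exposed rats. Every exposed rat lay below every air rat, and the fall was 19.5% (-0.31 ± 0.05, adjusted p = 4.24e-07), the smallest p among the 38 genes. At lower doses Tie1 had a similar fall in 3 runs: 10.9% at 90, 11.5% at 45 and 11.0% at 22.5 mg/m3 (adjusted p = 0.0159, 0.0344 and 0.00876). The groups overlapped at 90 and 22.5 mg/m3 and not at 45 mg/m3, where 6 exposed rats had 326 to 348 CPM and 3 air rats 374 to 386. The 2 outlier-labelled air lungs of the 45 run without a liver profile had 303 and 348 CPM on plain library totals. The call at 90 mg/m3 was lost without air rat 5 or exposed rat 2 or 4 (adjusted p from 0.0646 to 0.0898). That at 45 mg/m3 was lost in 9 of 18 other settings, among them those without any 1 of the air rats or without exposed rat 2, 3, 5 or 6 (adjusted p from 0.0573 to 0.181), and that at 22.5 mg/m3 with the run alone (0.292). At 11.25 mg/m3 the log2 fold change of Tie1 was -0.03 ± 0.05.

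Tek, the angiopoietin receptor that stabilises vessels, was at 615, 659 and 741 CPM in air at 180 mg/m3. The exposed rats had 501, 515, 530, 540 and 587 CPM, with no overlap and a fall of 19.6% (-0.32 ± 0.05, adjusted p = 3.4e-06). At 90 mg/m3 the 4 exposed rats had 581, 537, 551 and 535 CPM and the air rats 637 to 698 (adjusted p = 0.000502). At 22.5 mg/m3 the fall was 11.7% (adjusted p = 0.0138; 0.288 with that run fitted alone) with overlapping groups. At 45 mg/m3 the groups did not overlap (555 to 608 CPM exposed, 615 to 639 in air), yet the change of -0.12 ± 0.06 did not pass (adjusted p = 0.268). Kdr, the main signalling receptor for VEGF-A, fell by 16.7% at 180 mg/m3, from 698 ± 50.6 to 581 ± 46.6 CPM (adjusted p = 0.00261). The main fit did not call Kdr in the other runs, while limma voom called it lower at 90 mg/m3 (-0.18, adjusted p = 0.029). Flt1, a VEGF-A receptor that also acts as a trap, and Flt4, the VEGF-C receptor of lymphatics, were both at -0.06 (SE 0.16 and 0.13), and neither was called in any run.

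**Figure D3:**
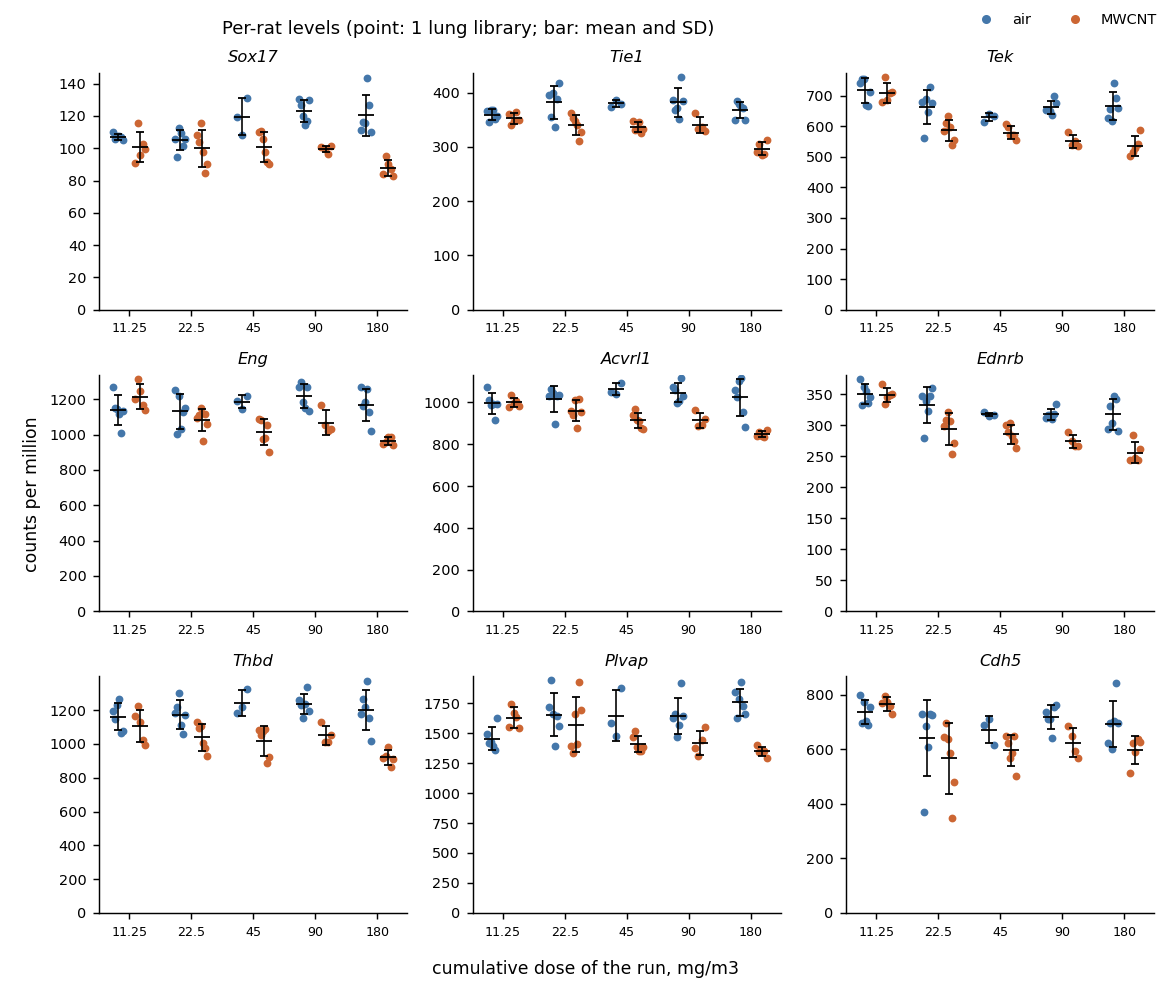
Level in CPM (y axis, from 0) of 9 genes in each lung library by dose of the run (x axis), with bars for the mean and SD of each group. At 180 mg/m3 the exposed rats of Sox17, Tie1, Tek, Eng, Acvrl1, Ednrb, Thbd and Plvap all lie below the air rats of that run, and those of Cdh5 overlap with them.

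The junction and surface group was the largest, with 13 genes, of which 9 fell at 180 mg/m3, 2 at 90 and 2 at 45 mg/m3. Plvap, which forms the diaphragms of endothelial pores, was at 1625, 1753 and 1922 CPM in air at 180 mg/m3. The exposed rats had 1398, 1340, 1348, 1354 and 1293 CPM. No exposed rat reached the air range, and the fall was 23.4% (-0.38 ± 0.07, adjusted p = 7.86e-05). Clec14a, a surface lectin of endothelium, was at 528, 569 and 619 CPM in air and at 460, 509, 479, 506 and 460 CPM in the exposed rats, also without overlap (-0.24 ± 0.05, adjusted p = 0.000154). It fell as well at 90 mg/m3, from 574 to 622 CPM in air to 537, 523, 504 and 492 CPM (adjusted p = 0.00671; 0.0515 without exposed rat 4). Icam2, a constitutive adhesion molecule of resting endothelium, was at 144, 171 and 192 CPM in air and 151, 134, 138, 122 and 127 CPM after 180 mg/m3. A single exposed rat reached the air range, and the fall was 20.4% (-0.33 ± 0.08, adjusted p = 0.00109).

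Other junction genes that fell at 180 mg/m3 were Cldn5, the claudin of endothelial tight junctions (-0.51 ± 0.13, adjusted p = 0.00224), Gja4, the gap junction protein connexin 37 (-0.45 ± 0.12, adjusted p = 0.00465), and Egfl7, a secreted endothelial protein (-0.35 ± 0.10, adjusted p = 0.00799). Esam, a tight-junction adhesion molecule (-0.24 ± 0.06), Pecam1, the adhesion molecule CD31 (-0.23 ± 0.07), and Mmrn2, a ligand of CLEC14A in the vessel matrix (-0.17 ± 0.06), fell less. Mmrn2 lost its call without air rat 2 or 3 or exposed rat 2 or 3 (adjusted p from 0.053 to 0.0681). Egfl7 was also called at 90 mg/m3 (adjusted p = 0.0424), a call lost in 9 of 19 other settings, among them those without air rat 1, 2, 3 or 4 or exposed rat 1, 2 or 4 (adjusted p from 0.0555 to 0.167). Cldn5 was called at 45 mg/m3 (adjusted p = 0.0459), and lost the call in 10 of 18 other settings, among them those without any 1 of the air rats or without exposed rat 1, 3, 5 or 6 (adjusted p from 0.0546 to 0.343). Esam was called there too (adjusted p = 0.0129), but not without air rat 4 (0.233).

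Cdh5, which encodes VE-cadherin, was not called in any run by the main fit. In other settings it was called lower at 90 mg/m3, by limma voom (-0.21, adjusted p = 0.0333) and with that run fitted alone (-0.20, 0.035). At 22.5 mg/m3 it was called lower without air rat 2 (-0.30, adjusted p = 0.0237). At 180 mg/m3 it was at 694 ± 84.3 CPM (SD, n = 6) in air and 598 ± 51.5 (n = 5) in exposed lungs, a log2 fold change of -0.22 with a 95% interval from -0.45 to 0.02 (adjusted p = 0.201). That interval holds the falls of Pecam1 (-0.23) and Tie1 (-0.31). In the run of 22.5 mg/m3, air rat 2 had 372 CPM of Cdh5 where the other air rats had 607 to 730, and exposed rat 5 had 348 CPM. In a setting added after the data were seen, without these 2 libraries, Cdh5 was called at 180 mg/m3 with nearly the same fold change (-0.21, adjusted p = 0.0293). Emcn, a sialomucin of capillaries and veins, was at 153 to 171 CPM in air and 137.2 to 145.6 after 180 mg/m3 without overlap (-0.21 ± 0.08, adjusted p = 0.0555). It passed with that run fitted alone (adjusted p = 0.00207) and with limma voom (0.00527). Robo4, a guidance receptor of endothelium, was measured at 1.11 to 3.68 CPM in that run with an SE of 0.43, too scarce to test well. Gja5, the arterial connexin 40, was at 0.04 ± 0.07 in that run, without a detectable change. At 45 mg/m3 Gja5 was at -0.27 (adjusted p = 0.0543). It was called lower there in 6 of 18 other settings, among them DESeq2 (0.0419) and limma voom (0.0276).

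All 3 receptors for BMP9 fell at 180 mg/m3. Eng, the co-receptor endoglin, was at 1021, 1172 and 1268 CPM in air and at 945, 959, 987, 984 and 944 CPM in exposed rats. Acvrl1, the type 1 receptor ALK1, was at 884, 1044 and 1118 CPM in air and at 841, 860, 839, 835 and 868 CPM. In both genes each exposed rat lay below each air rat, with falls of 17.5% (Eng, -0.28 ± 0.06, adjusted p = 0.00029) and 17.2% (Acvrl1, -0.27 ± 0.05, adjusted p = 1.56e-05). The pair fell together at 90 mg/m3 (12.3% and 12.6%, adjusted p = 0.0398 and 0.00691) and at 45 mg/m3 (14.5% and 14.0%, adjusted p = 0.0379 and 0.0105). Eng lost its call at 90 mg/m3 in 8 of 19 other settings: without air rat 1, 2 or 5 or exposed rat 2, 3 or 4 (adjusted p from 0.0741 to 0.146), with no filter and with the 4 outlier-labelled libraries put back. At 45 mg/m3 Acvrl1 kept its call when any 1 library except air rat 4 was left out, whereas Eng lost it without any of the 3 air rats or exposed rat 3, 4 or 6. With the 4 outlier-labelled libraries put back, both lost the call at 45 mg/m3 (adjusted p = 0.0589 for Acvrl1 and 0.364 for Eng). Eng lost it there with no filter too (0.0617). Bmpr2, the type 2 receptor mutated in heritable pulmonary hypertension, fell by 14.4% at 180 mg/m3, from 840 ± 84.3 to 719 ± 69.6 CPM (adjusted p = 0.00965), and was not called in the other runs.

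Of the 7 genes of peptide, lipid and nitric oxide signalling, 5 fell at 180 mg/m3. Ednrb, the endothelin B receptor, which clears endothelin in lung, was at 290, 318 and 347 CPM in air and at 244, 284, 247, 244 and 261 CPM in exposed rats. These groups did not overlap, and the fall was 19.5% (-0.31 ± 0.06, adjusted p = 1.75e-05). It was 13.8% at 90 mg/m3 and 11.9% at 22.5 mg/m3 (adjusted p = 0.0104 and 0.0219). The first call was lost without exposed rat 4 (adjusted p = 0.0595), and the second without air rat 6 or exposed rat 5 or 6 (0.068 to 0.0793) and with that run alone (0.345). In the run of 45 mg/m3 Ednrb was at 263 to 303 CPM in 6 exposed and 315 to 321 in 3 air rats (-0.15 ± 0.06, adjusted p = 0.165). Calcrl and Ramp2 together form the adrenomedullin receptor of endothelium. Calcrl was at 627, 728 and 834 CPM in air and 560, 606, 593, 562 and 647 CPM after 180 mg/m3, with 1 exposed rat in the air range (-0.31 ± 0.06, adjusted p = 0.000128). Ramp2 fell by 23.7% (adjusted p = 0.0183), and its call was lost without air rat 3 (adjusted p = 0.0565). Calcrl is the gene with the largest fall at 11.25 mg/m3, 14.5%, from 831 ± 51.3 CPM (n = 6) to 711 ± 57.4 (n = 5), with 3 of 5 exposed rats below the air range, and it did not pass in edgeR (adjusted p = 0.474); it is the gene that limma voom called there (-0.24, adjusted p = 0.0448).

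The apelin pair fell together at 180 mg/m3. Apln, the ligand, was at 125, 151 and 169 CPM in air and at 129, 132, 109.4, 117 and 123 CPM in exposed rats, with 2 of the 5 inside the air range (-0.30 ± 0.07, adjusted p = 0.000988). Its receptor gene Aplnr went from 221 ± 33.6 to 177 ± 12.7 CPM (-0.33 ± 0.08, adjusted p = 0.00192). Both were called at 45 mg/m3 as well (adjusted p = 0.0374 for Apln and 0.0291 for Aplnr), and Aplnr at 90 mg/m3 (0.0113). At 45 mg/m3 the call of Apln was lost in 9 of 18 other settings and that of Aplnr in 6. Both lost it without any 1 of the 3 air rats or without exposed rat 3, 5 or 6, and Apln also without exposed rat 4 (adjusted p from 0.0586 to 0.169 for Apln and 0.0521 to 0.143 for Aplnr). Nos3, the endothelial nitric oxide synthase, had a different pattern of calls: it fell by 20.3% at 90 mg/m3, with 31.1, 27.1, 30.7 and 25.5 CPM in the exposed rats and 34.3 to 39.1 in air (adjusted p = 0.00705), and by 21.8% at 45 mg/m3 (adjusted p = 0.0126). These calls were lost without exposed rat 4 at 90 mg/m3 (adjusted p = 0.0619) and without air rat 1 or 2 at 45 mg/m3 (0.119 and 0.0743). At 180 mg/m3 it was -0.13 ± 0.08 (adjusted p = 0.271), and the test of a difference among runs did not pass for Nos3 (adjusted p = 0.516). S1pr1, the sphingosine-1-phosphate receptor that tightens the barrier, was not called in any run (-0.21 ± 0.14 at 180 and -0.45 ± 0.16 at 45 mg/m3).

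The 3 haemostasis genes differed from each other. Thbd, thrombomodulin, the cofactor that turns thrombin into an anticoagulant, was at 1017, 1196 and 1374 CPM in air and at 919, 927, 984, 862 and 909 CPM after 180 mg/m3. No exposed rat reached the air range, and the fall was 23.4% (-0.38 ± 0.07, adjusted p = 9.62e-06). Thbd fell by 14.9% at 90 and 18.03% at 45 mg/m3, again without overlap (adjusted p = 0.0206 and 0.0141). The call was lost at 90 mg/m3 without exposed rat 2, 3 or 4 (adjusted p from 0.0549 to 0.0849). At 45 mg/m3 it was lost without air rat 2 or 4 (0.0528 and 0.149). It was also lost there with the 4 outlier-labelled libraries put back (log2 fold change -0.17, adjusted p = 0.136). The 2 outlier-labelled air lungs of that run without a liver profile had 940 and 1015 CPM of Thbd on plain library totals. The 6 exposed rats had 887 to 1090 CPM on the scaled library sizes. Vwf, von Willebrand factor, was not called in any run by the main fit (-0.11 ± 0.06 at 180 mg/m3). Limma voom called Vwf lower at 90 mg/m3 (-0.135, adjusted p = 0.0421). Procr, the endothelial protein C receptor, was at 13.2 to 18.5 CPM in air and 15.7 to 21.0 CPM in the 5 exposed rats of the 180 run, with all 5 above the air mean (0.25 ± 0.13, adjusted p = 0.16), and its estimates at 90 and 45 mg/m3 were both -0.27. Lyve1, a hyaluronan receptor of lymphatic endothelium that lung macrophages also carry, fell by 20.7% at 180 mg/m3 (adjusted p = 0.0477). That call was lost in 12 of 20 other settings. Without air rat 5, whose level of 577 CPM was the highest of the 6, the log2 fold change was -0.18 (adjusted p = 0.265). The call was also lost without air rat 4 or 6 or exposed rat 2, 3, 4 or 6 (adjusted p from 0.0636 to 0.0989). Other methods lost it too: limma voom (-0.21, adjusted p = 0.204) and edgeR with the run fitted alone (0.184). So did edgeR with no filter (0.0644) or a filter of 1 CPM in 10 libraries (0.0519).

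Across the runs the effect fell with dose for 19 of the 38 genes (a slope of the log2 fold change on log2 dose, edgeR, adjusted p under 0.05) and rose for 0, beside 5.07% and 5.58% of all genes. DESeq2 and voom also gave 0 rises. The largest of these slopes was that of Sox18, -0.16 ± 0.05 log2 units per doubling (adjusted p = 0.0331). The main fit did not call Sox18 in any run. From the lowest to the highest dose its log2 fold changes were 0.32, 0.34, 0.09, -0.42 and -0.09. The next slopes were those of Sox7, -0.15 ± 0.04 (adjusted p = 0.0115), and Plvap, -0.12 ± 0.02 (0.000195). Eng had -0.09 ± 0.02 (adjusted p = 0.000978), Sox17 -0.10 ± 0.02 (0.0014) and Acvrl1 -0.07 ± 0.02 (0.00166). On a linear dose scale 13 genes passed. The slope calls of Ramp2 (adjusted p = 0.0488) and Aplnr (0.0478) were lost in 48 and 47 of 62 other settings. Those of Sox18, Tal1 and Egfl7 were lost in 14, 14 and 12.

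The effect differed among the 5 runs for 8 genes, against 4.92% of all genes tested: Plvap, Eng, Sox17, Acvrl1, Tek, Clec14a, Tie1 and Apln (edgeR F-test with 4 degrees of freedom). Plvap had the smallest adjusted p, 0.00377. Its exposed rats were above the air mean in 5 of 5 cases at 11.25 mg/m3 (0.17 ± 0.07, 1542 to 1745 CPM beside 1358 to 1623 in air) and below all air rats at 180 mg/m3. At 22.5 mg/m3 Plvap ranged from 1332 to 1929 CPM in the exposed and from 1394 to 1940 in the air rats, a change of -0.08 ± 0.07. Eng had the same order, 0.09 ± 0.06 at 11.25 mg/m3 and -0.06 ± 0.06 at 22.5 mg/m3 (adjusted p of the difference 0.013). Sox17 was at -0.09 ± 0.07 and -0.07 ± 0.06 in the 2 lowest runs (0.0218), Acvrl1 at 0.01 ± 0.05 and -0.08 ± 0.05 (0.0253), and Tek at -0.02 ± 0.05 and -0.18 ± 0.05 (0.0336). This count moved with single libraries: it was 2 without exposed rat 2 of the 180 run, and between 3 and 11 without each other library.

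**Figure D4:**
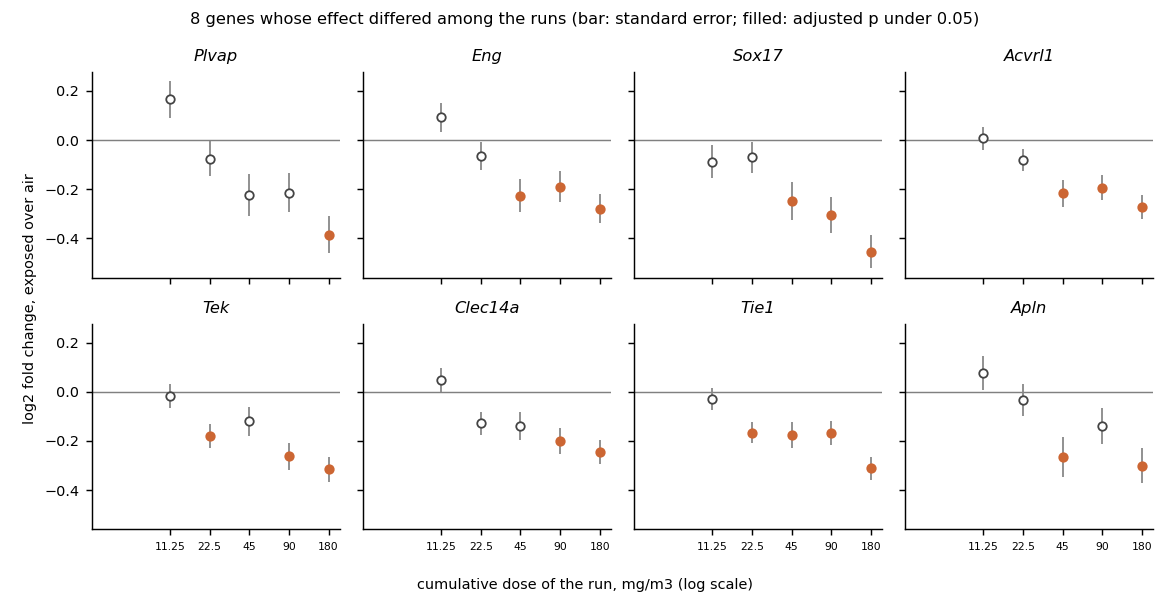
Log2 fold change of exposed over air (y axis, bar: standard error) against cumulative dose (x axis, log scale) for the 8 genes whose effect differed among the runs, with filled points for an adjusted p under 0.05. At 11.25 mg/m3 no point is filled and the values run from -0.09 for Sox17 to 0.17 for Plvap, and at 180 mg/m3 all 8 are filled and lie between -0.45 and -0.24.

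The air groups themselves differed between runs in 5 of the 38 genes (7.11% of all genes tested): Sox17, Emcn, Egfl7, Vwf and Procr. Egfl7 was lowest in air at 11.25 mg/m3, with a mean of 252 CPM, and highest at 45 mg/m3, with 344 (adjusted p = 0.0249). Emcn was at 129 CPM in the air group at 11.25 mg/m3 and 163 in that at 180 mg/m3 (0.0186). Sox17 was at 105 CPM at 22.5 mg/m3 and 123 at 90 mg/m3 (0.0275). The count was 0 without air rat 2 of the 11.25 run, 1 without its air rat 3 or 4 and 2 without its air rat 5. It was 3 without air rat 2 of either the 22.5 or the 90 run and 8 without exposed rat 5 of the 22.5 run.

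Genes that act with the 38 but are not among them moved in both directions at 180 mg/m3. The lists were chosen by function, with earlier results of these data known. Their counts are therefore not an independent test against the share of all genes. In that run 10.9% of all genes tested fell and 12% rose, and the numbers that fell in the BMP and TGF-beta, arterial and venous and lymphatic lists were within 1 gene of that share. Of 14 VEGF and angiopoietin genes tested, 4 fell and 1 rose, with a median log2 fold change of -0.14. Vegfa, the ligand of KDR that alveolar epithelium makes, fell from 1735 ± 68.4 to 1347 ± 57.4 CPM (-0.36 ± 0.06), the TEK ligand Angpt2 fell by 0.34 on the log2 scale, and Angptl4 rose (0.48 ± 0.17). In the 4 lower runs 1, 1, 1 and 0 genes of the list fell, and 1 rose at 22.5 mg/m3. Of 19 BMP and TGF-beta genes, 3 fell and 1 rose, with a median of -0.05. Bmp2 (-0.66 ± 0.20) and Tmem100, an endothelial target of BMP9 signalling (-0.50 ± 0.08, 779 ± 90.3 to 550.5 ± 17.4 CPM), fell, and Tgfbr1 rose (0.67 ± 0.11). From 90 to 11.25 mg/m3, 4, 3, 0 and 0 fell and 1 rose at 90 mg/m3.

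Of 14 Notch genes, 5 fell at 180 mg/m3 and the rest were not called, with a median of -0.23, led by Heyl (-0.64 ± 0.18), Notch3 (-0.39 ± 0.14) and Jag2 (-0.28 ± 0.08). In the lower runs 4, 3, 0 and 0 fell. Heyl and Notch3 are also genes of mural cells. Of 17 vasoactive and lipid genes, 6 fell and 1 rose (median -0.18): Cav1, the coat protein of caveolae, fell from 1523 ± 111.3 to 1128 ± 30.6 CPM (-0.43 ± 0.06), S1pr3 fell (-0.40 ± 0.09), and Sphk1, which makes sphingosine-1-phosphate, rose from 1.92 ± 0.44 to 3.97 ± 1.11 CPM (1.04 ± 0.18). In the lower runs 4, 0, 1 and 0 fell and 1 rose at 90 mg/m3. Of 19 other endothelial transcription factors, 8 fell (median -0.19), the most by Klf2, the flow-induced factor that switches on Thbd and Nos3, from 199 ± 35.7 to 109.2 ± 23.6 CPM (-0.87 ± 0.21, adjusted p = 0.0014). Gata2 (-0.44 ± 0.08) and Klf4 (-0.34 ± 0.09) came next. In the lower runs 4, 4, 1 and 0 of these factors fell.

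Some genes of clotting and leukocyte capture rose in the run of 180 mg/m3. Of 13 haemostasis and fibrinolysis genes, 5 rose at 180 mg/m3 and 1 fell (median -0.04). Thbs1, a matrix protein also released by platelets, went from 98.4 ± 11.0 to 200.05 ± 24.7 CPM (1.02 ± 0.17), and Plaur, the urokinase receptor, rose too (0.62 ± 0.13). In the lower runs 3, 0, 0 and 0 rose and 1, 1, 1 and 0 fell. Of 11 leukocyte adhesion genes, 6 rose and 3 fell (median 0.22). Sele, E-selectin, an adhesion molecule that activated endothelium makes, went from 1.20 ± 0.29 CPM in air to 6.68 ± 1.78 (2.45 ± 0.25, adjusted p = 6.7e-11). Selp, P-selectin of endothelium and platelets, went from 3.99 ± 0.88 to 11.1 ± 2.93 CPM (1.46 ± 0.18), and Cx3cl1, fractalkine, from 52.9 ± 5.57 to 86.8 ± 3.23 (0.72 ± 0.10). In the lower runs 4, 1, 3 and 0 of the adhesion genes rose and 1, 1, 0 and 0 fell.

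**Figure D5:**
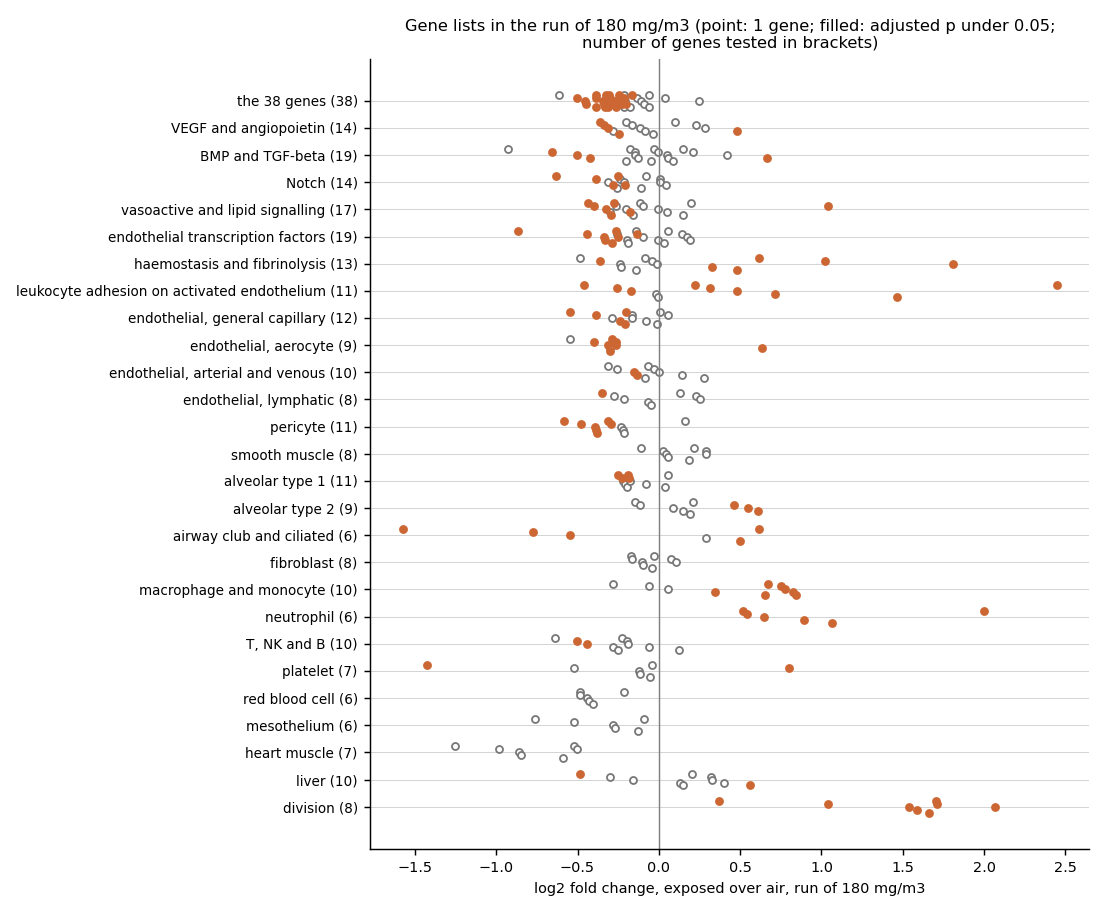
Log2 fold change at 180 mg/m3 (x axis) of the 38 genes and of each list of related or other cell type genes (y axis), with 1 point per gene and filled points for an adjusted p under 0.05. The 25 filled points of the 38 genes lie left of 0, and those of leukocyte adhesion genes lie on both sides, from -0.46 for Cd34 to 2.45 for Sele.

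Markers of kinds of endothelium gave these counts at 180 mg/m3. Of 12 general capillary genes, 5 fell (median -0.18), led by Hpgd, a prostaglandin-degrading enzyme (-0.55 ± 0.10), Ushbp1 (-0.39 ± 0.05) and Rasip1 (-0.24 ± 0.06), and 3, 1, 0 and 0 fell in the lower runs. Of 9 genes of aerocytes, the large capillary cells of gas exchange, 6 fell and 1 rose (median -0.30), but 3 of the 9, Ednrb, Apln and Kdr, belong to the 38. Car4 fell (-0.40 ± 0.10) and Chst1 rose (0.64 ± 0.10, 25.3 ± 2.49 to 39.3 ± 4.43 CPM). In the lower runs 2, 1, 1 and 0 fell and 1 rose at 22.5 mg/m3. Of 10 arterial and venous genes, 2 fell, Prss23 (-0.15 ± 0.05) and Nr2f2 (-0.13 ± 0.05), and edgeR called 0 in the lower runs, where 1, 0, 2 and 1 had an unadjusted p under 0.05. Of 8 lymphatic genes, 1 fell, Tspan18 (-0.35 ± 0.07), and 1 at 90 mg/m3. The median of the arterial and venous list was -0.08 and that of the lymphatic list -0.06.

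Other cell types moved in the same lungs, and their part in the falls was not tested. In the runs of 90, 45 and 22.5 mg/m3, 8, 7 and 8 of 8 cell division genes, 5, 1 and 6 of 10 macrophage and monocyte genes and 4, 1 and 2 of 6 neutrophil genes rose, and 3, 1 and 2 of 11 pericyte genes and 2, 1 and 0 of 11 alveolar type 1 genes fell. At 11.25 mg/m3 edgeR called 0 genes of these 5 lists, with 1 lower and 2 higher at an unadjusted p under 0.05. The summed level of 11 pericyte genes was 1413 to 1528 CPM in air and 1105 to 1254 at 180 mg/m3, and 7 of them fell, such as Cox4i2 (-0.58 ± 0.13) and Ndufa4l2 (-0.48 ± 0.12). Of 11 alveolar type 1 genes, 4 fell, such as Ager (-0.25 ± 0.08), with summed levels of 9494 to 10106 CPM in air and 8599 to 8797 exposed. Of 9 alveolar type 2 genes, 3 rose, such as Sftpa1 (0.61 ± 0.10), and the sum went from 23037 to 30161 CPM in air to 30142.5 to 32177. Of 6 airway genes 3 fell and 2 rose, with sums of 5552 to 8481 CPM in air and 3802 to 4713 exposed. By edgeR 0 of 8 smooth muscle genes (0 lower and 2 higher at an unadjusted p under 0.05) and 0 of 8 fibroblast genes (0 and 0) were called at 180 mg/m3, with sums of 1221 to 1406 and 3162 to 3414 CPM in air and 1263 to 1401 and 3148 to 3420 exposed.

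Among blood cells, 6 of 6 neutrophil genes tested rose, such as Il1r2 (2.73 ± 0.64 CPM in air and 10.9 ± 2.36 exposed), and their sum went from 128.6 to 213.0 CPM in air to 249.0 to 326.1 at 180 mg/m3. Of 10 macrophage and monocyte genes, 7 rose, such as Itgax (0.85 ± 0.10), with sums of 16232 to 25439.7 CPM in air and 22366 to 25231.5 exposed. Of 10 lymphocyte genes 2 fell, Nkg7 (-0.50 ± 0.15) and Cd8a (-0.44 ± 0.12), and of 7 platelet genes 1 rose, Pf4, and 1 fell, Gp9. The red cell sum was 2905 to 4152 CPM in air and 2046 to 3259 exposed, and edgeR called 0 of 6 genes, with 4 lower at an unadjusted p under 0.05. All 8 cell division genes rose at 180 mg/m3, such as Mki67 (1.66 ± 0.10), with sums of 122.7 to 146.5 CPM in air and 265.3 to 283.6 exposed; which cells divided was not measured. Of tissues that can come with a lung piece, the mesothelium sum was 388.2 to 568.1 CPM in air and 334 to 505 exposed, and that of heart muscle genes was 20.6 to 349.8 and 31.8 to 142.4 CPM. EdgeR called 0 genes of either list at 180 mg/m3, also 0 at an unadjusted p under 0.05, and of 10 liver genes 1 rose and 1 fell.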

How the data were processed

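The data are mRNA libraries from pieces of rat lung, 60 in all. The authors deposited raw read counts per gene symbol in a single table. Per the submitters' processing notes the tools were bcl2fastq 2.19, Trimmomatic 0.35, HISAT2 2.1.0, Cufflinks, SAMtools 1.8 and HTSeq 0.11.2; the genome build is not given in the sources used here. Per the labels' protocols libraries were stranded, from poly(A) RNA, with 12 PCR cycles. Dates put in by a spreadsheet replaced the symbol of 27 genes, and 2 names were listed repeatedly; none was among the 38 genes.

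Counts of the 53 libraries not labelled outlier were fitted with edgeR 4.0.16 under R 4.3.3 (filterByExpr with a minimum count of 10, TMM, robust quasi-likelihood fit of the 10 groups, which share 1 estimate of a gene's spread). The filter removed 14050 genes, and the 15995 kept held 99.932% of the counts. Each run's exposed rats were compared with its own air rats. Further contrasts tested the slope of the effect on log2 dose, unequal effects among the runs, and unequal air groups. Tests were two-sided, and p-values were adjusted by Benjamini-Hochberg over all genes within a comparison. SEs of log2 fold changes were derived from F, and intervals are at 95%. The script was tested on simulated data. No 2 libraries of a group were duplicates (smallest chi-square per degree of freedom 2.52). The labels give rats as replicates; counts carry no molecular identifiers.

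The 38 genes and all gene lists were chosen with earlier results of these data known. Values per rat are given for the 12 smallest p-values at 180 mg/m3 and the 5 smallest for the difference among runs, at most 3 called genes per related list and at most 2 per list of another cell type; other values were added where a result turned on them. Values of 1 called gene of a related list are not reported here. Alternatives were all 60 libraries, 57 without the 3 of a liver profile, DESeq2's size factors, DESeq2 1.42.0, limma 3.58.1 voom with quality weights, no filter, 1 CPM in 10 libraries, each run alone, a linear dose scale, each library left out, and, added after the data were seen, 2 libraries of the 22.5 mg/m3 run left out together. Promoter windows came from RefSeq (GRCr8) by symbol.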

Additional observations from a re-analysis of the deposited data

Results flagged for a closer look

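In groups of 4 to 6 rats, 342 pairs of a gene and a group were searched for a single rat far from the rest, and 22 were found. Chance puts about 1 in 20 groups past the limit, and 5% of the pairs is 17.1. Of these, 4 high values and 1 low value belonged to air rat 2 of the run of 22.5 mg/m3: Pecam1 at 405.9 CPM (others 298 to 338), Cldn5 at 890.8 (452 to 576), Icam2 at 234.0 (150.04 to 172.6) and Ramp2 at 528.0 (264 to 338) were high, and Cdh5 at 371.6 (607 to 730) was low. Exposed rat 5 of that run was high in Cldn5 at 697.5 CPM (429 to 518), Emcn at 207.6 (138.4 to 146.8) and Egfl7 at 387.8 (278 to 310). Without these 2 libraries the counts called lower were 27, 19, 15, 4 and 0 from 180 to 11.25 mg/m3.

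The other single rats were spread over groups. In air they were Erg at 154.9 CPM and Ednrb at 333.9 in rat 6 and Sox7 at 77.1 in rat 4 of the 90 run, Acvrl1 at 896.0 in rat 4 of the 22.5 run and Vwf at 1172.5 in rat 5 of the 180 run. In exposed rats of the 180 run, Prox1 was at 4.41 CPM in rat 6 and Aplnr at 155.1 in rat 4. In those of the 90 run Icam2 was at 156.7 in rat 1. In those of the 45 run Tal1 was at 70.9 in rat 2, Ramp2 at 232.7 in rat 5 and Vwf at 912.2 in rat 6. In those of the 11.25 run Kdr was at 844.1 and Vwf at 1303.6 in rat 5, and Apln at 173.9 in rat 4.

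The exposure effect differed among runs for Plvap (adjusted p = 0.00377), Eng (0.013), Sox17 (0.0218), Acvrl1 (0.0253), Tek (0.0336), Clec14a (0.0391), Tie1 (0.0433) and Apln (0.0437).

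The main comparisons left out the libraries labelled outlier. Among these, Prox1 was at 69.2 CPM in air rat 5 of the 45 run and at 96.6 and 53.01 in exposed rats 5 and 6 of the 90 run. These are the 3 libraries with a liver profile, and the highest of the air libraries analysed had 5.25. Prox1 was at 5.56 in air rat 6 of the 45 run and 5.26 in exposed rat 2 of the 11.25 run. Flt4 was at 47.1 CPM in the last library (highest air 46.6). In air rat 3 of the 45 run Cldn5 was at 891.2 (highest air 864.5) and Egfl7 at 420.9 (419.5).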

How the results depend on the processing

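With all 60 libraries, which include 3 of a liver profile, edgeR called 0 of the 38 genes lower at 180 mg/m3, 0 at 22.5 mg/m3 and 0 for the dose slope. It called 1 lower at 45 mg/m3, 1 for the difference among runs and 1 for the air groups. Prox1 alone was higher at 90 mg/m3, 1 gene (log2 fold change 4.57). The 3 libraries of a liver profile belong to the runs of 45 and 90 mg/m3. At 180 mg/m3 the log2 fold changes of the 25 genes stayed below 0. Those of Sox17, Tie1 and Plvap were -0.49, -0.31 and -0.42, beside -0.45, -0.31 and -0.38 in the main fit. The adjusted p of the 25 genes rose to between 0.422 and 0.952. At 45 mg/m3 the sign then turned for Sox17 (0.12), Tie1 (0.11), Esam (0.012), Eng (0.10), Acvrl1 (0.10), Aplnr (0.0018), Apln (0.095) and Thbd (0.084), none of them called. Of the other settings, voom called 23 lower at 90 and 1 at 11.25 mg/m3, 16 for the difference among runs and 12 among air groups. Without a filter 5 were lower at 45 mg/m3 and 4 differed among runs, and with the stricter filter 5 differed. DESeq2 called 5 lower at 22.5 mg/m3 and 8 among air groups, and that run alone gave 0. Putting back 4 libraries without a liver profile left 5 at 45 mg/m3, and leaving out the 2 libraries of the 22.5 run gave 10 among air groups. The cause of these moves was not tested. Leaving out 1 library gave 22 to 25 lower at 180 mg/m3, 5 to 14 at 90, 1 to 10 at 45, 2 to 7 at 22.5 and 0 at 11.25, with 14 to 21 for the slope, 2 to 11 for the difference among runs and 0 to 8 among air groups. No paired analysis was possible because the labels give no shared replicate numbers. With 3 to 6 rats a group, SEs ran from 0.04 to 0.46, so small changes in Robo4 and Prox1 were not detectable at this depth.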

Other observations

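Exposed rat 1 of the 180 run was labelled outlier and entered only the settings that put outlier-labelled libraries back. Liver genes took 0.165% of its counts, above the 0.05% reached by the analysed libraries and far under the libraries of a liver profile. Of the 25 genes called lower in that run, 24 lay below the lowest of the run's 6 air rats in this library. These 25 genes were called against the same 6 air rats, and no share over all genes is given. The summed level of the 38 genes in this library was 12023 CPM per library total, beside 13734 to 16520 in those air rats. Unexposed lungs labelled outlier without a liver profile were low too. In air rats 3 and 6 of the 45 run, 17 and 18 of these 25 genes lay below the 3 air rats kept. Liver genes took 0.029% and 0.398% of the counts of these 2 lungs, where more than 1% was taken as a liver profile. In exposed rat 2 of the 11.25 run, also labelled outlier and without a liver profile, 0 of the 38 genes lay below its air rats. The sum was 15706 CPM beside 13980 to 15841, and liver genes took 0.257% of the counts.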
